A study of Bos taurus with 42 samples.

Results

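*ZBTB33*, *ZBTB1* and *ZNF131* are 3 genes for zinc finger DNA-binding proteins, described here in the cerebrum, liver and muscle of bovine fetuses. Their counts were taken by Ensembl identifier (ENSBTAG00000017184, ENSBTAG00000040551 and ENSBTAG00000015504), which the supplementary tables of the study pair with the symbols, and they make up 3 of the 22664 genes counted. The study had singled them out in muscle, where their correlations with other genes differed between the maternal diets. The muscle values of the 2 diets are therefore a description that supports nothing, and a threshold used on them below serves only to count. The tissue levels, fetal sex, cerebrum and liver were tested.

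The 14 fetuses were collected at day 50 of gestation from Angus-cross heifers that were all inseminated with semen of 1 bull. From breeding on, the control dams (CON, n = 7) were fed to 100% of requirement, and the restricted dams (RES, n = 7) were given 60% of the control delivery. Every fetus gave 1 library each of cerebrum, liver and hind limb muscle, 42 in all, and carries the same number in the 3 tissues. CON held 6 males and 1 female (fetus 68), and RES held 5 males and 2 females (fetuses 55 and 70). Cerebrum libraries totalled 4145093 to 7576159 counts, muscle libraries 5384018 to 7592149 and liver libraries 6658218 to 12741299.

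All 3 proteins pair a BTB domain, through which such proteins bind each other and corepressors, with zinc fingers that contact DNA. *ZBTB33* encodes Kaiso, which binds methylated CpG sites as well as an unmethylated motif, recruits the NCoR corepressor and is bound by p120-catenin. *ZBTB1* encodes a repressor known from lymphoid development and from the response to DNA damage. *ZNF131* encodes a protein that has been described as an activator as well as a partner of Kaiso, so the word repressor covers it only in part.

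The tissue labels were checked against marker genes fixed by name. *NEUROD6*, a gene of cortical neurons, ran from 22.7 to 354.3 CPM (counts scaled to a common library size) in the cerebrum and to at most 0.416 in the liver and 1.63 in muscle. The 6 skeletal muscle markers, of which *MYH3* (embryonic myosin heavy chain) was the most abundant, summed to 882 to 6546 CPM in muscle and to at most 102 in the cerebrum. The liver markers summed to 86650 CPM or more in each liver, to at most 5872 in the cerebrum (fetus 1, mostly *TTR*) and to at most 109.9 in muscle. The red cell markers summed to 3107 to 5519 CPM in the liver and to at most 79.7 elsewhere. Muscle libraries also carried cartilage markers (35.7 to 203.5 CPM) and the Schwann cell marker *ERBB3* (30.6 to 214.1 CPM), which was also present in the livers (79.7 to 149.9 CPM).

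Of the 42 libraries, 6 stood apart, 4 of liver and 2 of cerebrum. In the liver, mitochondrially encoded genes took 67.7% of the counts of fetus 1, 44.9% of fetus 2, 35.6% of fetus 6 and 30.5% of fetus 33, against 4.04% to 16.4% in the other 10. All 4 of these fetuses were male, and 3 of them were RES. In the cerebrum, the library of fetus 1 had 14.7% mitochondrial counts, *TTR* (the choroid plexus transthyretin) at 5632 CPM against a median of 55.4, and *DCX* (a gene of young neurons) at 1.01 CPM against a median of 31.5. Its 5 cerebrum markers together were not the lowest, at 161.4 CPM (median 246.9) against 159.3 in fetus 54 and 140.1 in fetus 69. The same library was the highest of the 14 cerebra for markers of other tissues, at 101.8 CPM for skeletal muscle (median 4.19), 93.2 for cartilage (median 22.7) and 79.7 for red cells, and their part in its *ZBTB33* values was not tested. In the cerebrum library of fetus 23 the 10 most abundant genes took 13.4% of the counts (15.1% in fetus 1, against a median of 5.23%), *DCX* was at 4.74 CPM and the X-linked *KDM6A* at its lowest level in that tissue (29.7 CPM). Its *TTR*, at 622.5 CPM, was below that of 4 other cerebra, and its *NEUROD6* was above the median at 195.4 CPM. This division was made after the data were seen, and the comparisons that include these libraries are mostly given with and without them.

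Levels below are CPM after TMM scaling over the 42 libraries, and gene lengths were not used, so each gene was compared only with itself. *ZBTB33* ran from 29.2 CPM (fetus 1) through a median of 62.3 to 130.3 (fetus 23) in the cerebrum. In the liver it ran from 8.71 (fetus 1) through 21.1 to 35.2 CPM (fetus 70), and in muscle from 22.8 (fetus 1) through 29.4 to 35.3 CPM (fetus 25). Cerebrum was the highest tissue for the Kaiso gene in each of the 14 fetuses, while its liver and muscle ranges overlapped. *ZBTB1* ran from 18.4 through 24.6 to 39.7 CPM in the cerebrum, from 2.72 through 14.4 to 22.0 CPM in the liver and from 25.7 through 36.8 to 42.3 CPM in muscle. Its order was muscle, cerebrum, liver, with muscle above liver in all 14 fetuses and above cerebrum in 12. *ZNF131* ran from 24.98 through 44.9 to 82.2 CPM in the cerebrum, from 13.7 through 44.8 to 51.8 CPM in the liver and from 42.0 through 49.8 to 67.1 CPM in muscle. The 3 tissues overlapped broadly for *ZNF131*. All counts were above a floor of 3 reads. The smallest were those of *ZBTB1* in the livers of fetuses 1, 6, 33 and 2, at 7, 11, 19 and 20 reads, so these levels rest on few reads.

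**Figure D1:**
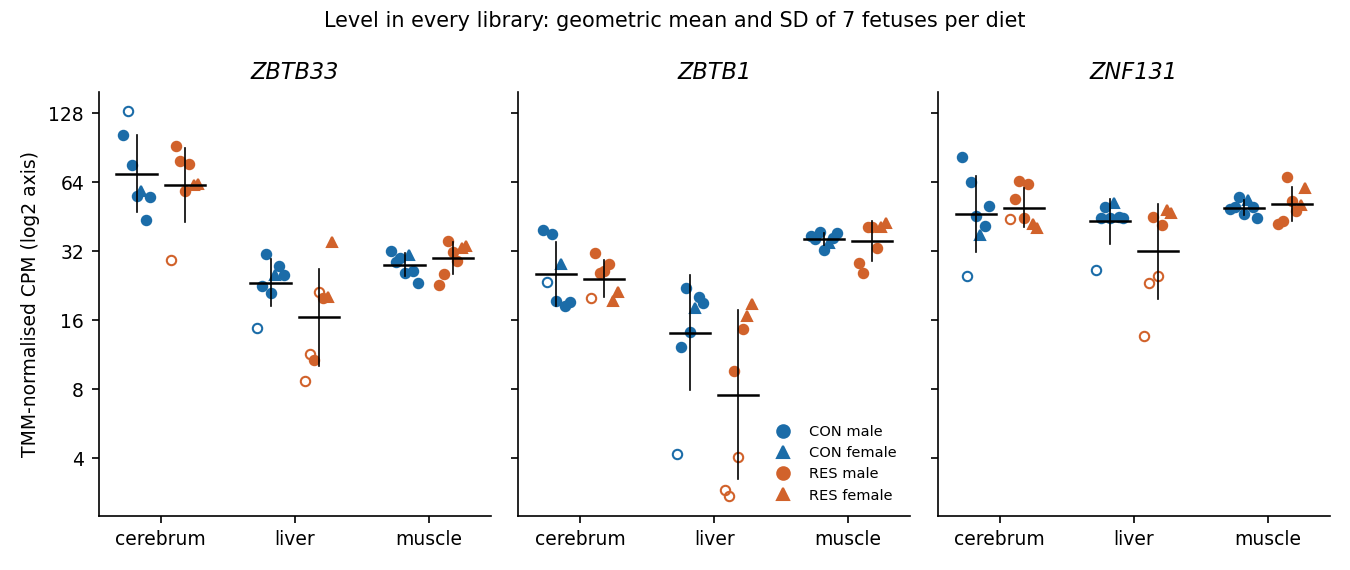
Level of each gene in the 42 libraries (TMM-normalised CPM, log2 axis) by tissue, with the geometric mean and SD of the 7 CON and 7 RES fetuses. Circles are males, triangles females and open symbols the 6 libraries that stood apart; *ZBTB33* is highest in the cerebrum, *ZBTB1* in muscle, and the liver points of *ZBTB1* reach down to 2.72 CPM.

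*ZBTB33* was lower outside the brain, *ZBTB1* was highest in muscle, and *ZNF131* differed little between tissues. In edgeR's quasi-likelihood test with Benjamini-Hochberg adjustment over 15972 genes, *ZBTB33* was lower in liver than in cerebrum by a log2 change of -1.75 (SE 0.17, adjusted p = 1.87e-12). It was also lower in muscle than in cerebrum (-1.27, SE 0.17, adjusted p = 9.82e-09, edgeR). Between muscle and liver the difference was smaller, at 0.48 (SE 0.17, adjusted p = 0.00902, edgeR), and muscle was the higher tissue in 10 of 14 fetuses. Without the 6 libraries the first pair of differences remained at -1.47 and -1.20, but the last one fell to 0.27 (adjusted p = 0.0642, edgeR) and was no longer called.

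*ZBTB1* was lower in liver than in cerebrum (-1.03, SE 0.21, adjusted p = 2.47e-05, edgeR) and higher in muscle than in liver (1.52, SE 0.21, adjusted p = 1.71e-08, edgeR). It was higher in muscle than in cerebrum by 0.49 (SE 0.20, adjusted p = 0.0305, edgeR). These 3 calls held without the 6 libraries, at -0.62, 1.12 and 0.50 (largest adjusted p = 0.00032, edgeR). The muscle against cerebrum call was lost when fetus 25, 54, 55, 69, 70 or 73 was left out, although the difference stayed between 0.45 and 0.56.

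*ZNF131* was lower in liver than in cerebrum (-0.35, SE 0.15, adjusted p = 0.0299, edgeR) and higher in muscle than in liver (0.37, SE 0.15, adjusted p = 0.0202, edgeR), whereas muscle and cerebrum were 0.02 apart (adjusted p = 0.892, edgeR). Within fetuses, muscle was above liver in 13 of 14 and below it in 0. Liver was below cerebrum in 9 of 14 and above it in 5. Without the 6 libraries both calls were lost, at -0.11 (adjusted p = 0.319) and 0.11 (adjusted p = 0.314, edgeR). The small muscle against cerebrum value was negative with DESeq2's size factors (-0.03).

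These contrasts called most genes, so the calls do not set the 3 genes apart. Of all genes tested, 83.6% were called between liver and cerebrum (38.5% higher and 45.2% lower in liver). Between muscle and cerebrum 68.1% were called (32.2% higher and 35.9% lower in muscle), and between muscle and liver 82.0% (45.5% higher and 36.6% lower in muscle). All 3 genes were called in the first and the last contrast, and *ZBTB33* and *ZBTB1* in the middle one. The median over all genes was -0.17 for liver against cerebrum, -0.06 for muscle against cerebrum and 0.21 for muscle against liver. In whole tissue, fewer cells of a type and less RNA per cell cannot be told apart.

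Other BTB zinc finger genes were counted in the same contrasts. Of 46 such genes listed, 19 had an identifier in the supplementary tables, which name only 5131 genes, and 18 were tested. Of these 18, 13 were lower in liver than in cerebrum and 1 was higher (median -0.77), where 45.2% of all genes were lower and 38.5% higher. In muscle against cerebrum 11 were lower and 2 higher (median -0.55), where 35.9% and 32.2% of all genes were. Against liver, 10 of the 18 were higher in muscle and 2 were lower (median 0.70), where 45.5% and 36.6% of all genes were. These counts were the same with DESeq2's size factors, and without the 6 libraries they were 11 lower and 3 higher, 12 lower and 2 higher, and 11 higher and 4 lower. The falls in liver with the lowest p-values were those of *PATZ1* (-1.53) and *ZBTB7C* (-2.38), and the single rise was that of *ZBTB7A* (2.47), a repressor known from red cell development. In muscle, *ZBTB20*, a gene of the developing cortex and hippocampus, was far below cerebrum (-4.15), whereas *BCL6B* (3.05) and *ZBTB47* (1.37) were above it (edgeR, all adjusted p below 0.05).

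The genes that Kaiso works with were read in the same contrasts. *NCOR1*, the corepressor that Kaiso recruits, was higher in liver than in cerebrum (0.62, adjusted p = 1.48e-06, edgeR) and did not differ detectably between muscle and cerebrum (0.01). *CTNND1*, which encodes p120-catenin, was lower in liver (-0.26) and higher in muscle (0.76) than in cerebrum. *GPS2*, a subunit of the same corepressor complex, was higher in liver than in cerebrum (1.46), and *TCF7L1*, a Wnt pathway factor, was much higher in muscle than in cerebrum (2.57) or liver (3.14). Of the 5 genes of this list with an identifier, 3 were higher and 2 lower in liver than in cerebrum, where 38.5% and 45.2% of all genes were. In muscle against cerebrum 2 were higher and 0 lower, where 32.2% and 35.9% of all genes were. Without the 6 libraries *GPS2* was 0.69 in liver against cerebrum, and *CTNND1* was no longer called there (-0.11, adjusted p = 0.218, edgeR).

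Of 5 methyl-CpG readers tested, 3 were higher and 1 lower in liver than in cerebrum, where 38.5% and 45.2% of all genes were. Without the 6 libraries 2 were higher and 1 lower, where 41.58% and 43.28% of all genes were. With all libraries *MBD2* rose in liver against cerebrum by 1.64 and *UHRF1*, which recruits the maintenance methyltransferase, by 0.97. *ZBTB38*, which encodes a Kaiso-like protein, fell by 1.89. In muscle against cerebrum 2 were higher (*UHRF1* at 1.02) and 2 lower, where 32.2% and 35.9% of all genes were. With DESeq2's size factors 1 of the higher calls was lost. Against liver, *ZBTB38* was higher in muscle (1.33), and *MBD2* (-1.41) and *MBD1* (-0.56) were lower. *TET2*, a methylcytosine oxidase and the 1 methylation enzyme tested, was also higher in muscle than in liver (1.78). In liver against cerebrum *TET2* fell by 2.07.

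Of 8 genes that have been reported as Kaiso targets, 7 were higher in muscle than in cerebrum and none was lower (median 1.76), where 32.2% of all genes were higher and 35.9% lower, with *RARB* (2.35) and *ID3* (2.25) at the lowest p-values. Against liver, 6 of the 8 were higher in muscle and 1 was lower (median 1.62), where 45.5% and 36.6% of all genes were. Without the 6 libraries these counts were the same, where 45.21% and 37.51% of all genes were. A link of these genes to the *ZBTB33* level was not tested. In liver against cerebrum 2 of the 8 were higher and 2 lower, where 38.5% and 45.2% of all genes were. Without the 6 libraries 6 were higher and 2 lower, where 41.58% and 43.28% of all genes were. Called with all libraries were, among others, *SIAH2*, a ubiquitin ligase gene (3.91), and *CCND1*, the cyclin D1 gene (-2.10). Of 6 genes for partners or targets of ZBTB1 and ZNF131, 4 were higher and 1 was lower in liver than in cerebrum (3 and 1 without the 6 libraries). The shares of all genes there were 38.5% and 45.2%. In muscle 1 was higher and 3 lower than in cerebrum (32.2% and 35.9% of all genes), and 2 higher and 4 lower than in liver (45.5% and 36.6%). *ATF4*, a stress response factor, was the most raised of them in liver against cerebrum (1.88). *SUMO2*, the modifier joined to many repressors, fell by 1.58 in that contrast. *ASNS*, an amino acid synthesis gene, was higher in muscle than in either other tissue (0.89 and 0.98). In edgeR none of the genes of these lists was called between the diets in any tissue, where 0% of all genes were.

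The spread between fetuses depended on the libraries that stood apart. Within diets, the SD of the log2 level in muscle was 0.20 for *ZBTB33*, 0.22 for *ZBTB1* and 0.19 for *ZNF131*, against a median of 0.26 over 14947 genes. In the cerebrum the SDs were 0.56, 0.37 and 0.42 (median of 15151 genes 0.53). In the liver *ZBTB1* stood out with an SD of 1.04, larger than that of 90.8% of 13527 genes, while *ZBTB33* (0.57) and *ZNF131* (0.55) were near the median of 0.49. Without fetuses 1 and 23 the cerebrum SDs were 0.35, 0.40 and 0.37 (median 0.39). In the 10 livers with low mitochondrial counts they were 0.48, 0.39 and 0.11 (median 0.36), and 1.915% of genes had a lower SD than *ZNF131* there.

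The wide range of *ZBTB1* in the liver followed the 4 libraries with over 30% mitochondrial counts. In those 4 livers *ZBTB1* measured 2.90, 4.16, 2.72 and 4.03 CPM (fetuses 1, 2, 6 and 33), and in the other 10 it lay between 9.60 and 22.0 CPM. *ZNF131* measured 13.7, 26.4, 23.3 and 25.01 CPM in the 4 and between 41.5 and 51.8 CPM in the other 10. Neither gene overlapped between the 4 and the 10, and all 4 lay below all 10 for 11.4% of the 13527 liver genes and above them for 13.4%. *ZBTB33* was 14.0 ± 5.39 CPM (SD, n = 4) in the 4 livers and 23.9 ± 6.73 CPM (SD, n = 10) in the rest, with overlap, since fetus 33 reached 21.2 CPM and fetus 25 was at 10.7 CPM.

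The low values were as clear after the mitochondrial reads were taken out. With totals taken without the mitochondrial genes, in CPM, *ZBTB1* was 1.70 to 3.16 in the 4 livers and 6.83 to 17.8 in the other 10, and *ZNF131* was 8.03 to 20.03 against 31.9 to 42.8. *ZBTB1* reads came to 11.7% to 21.2% of *ZNF131* reads in the 4 livers and to 21.4% to 45.1% in the other 10. *TOP2A*, the proliferation marker with an identifier, was also lowest in the 4 livers (116 to 133 CPM against 163.5 to 381.5). *KDM6A* was 12.0 to 18.7 CPM there against 39.1 to 87.5, whereas *GATA1*, an erythroid factor, was high, up to 1004 CPM in fetus 1. The part of RNA quality, cell makeup or dissection in these differences was not tested.

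**Figure D2:**
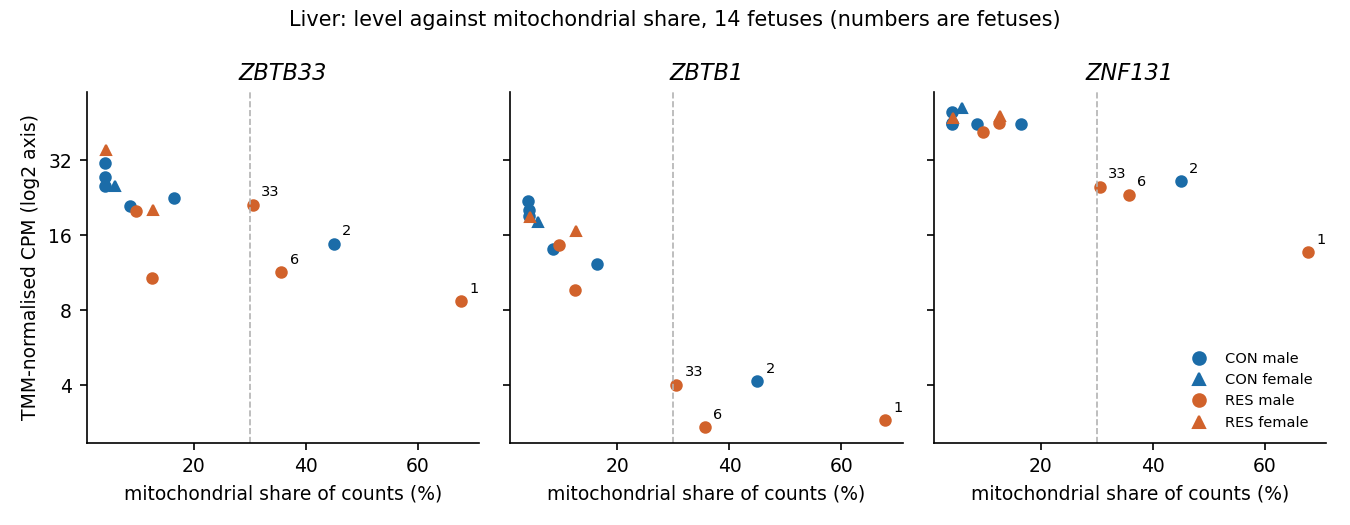
Level of each gene in the 14 livers (TMM-normalised CPM, log2 axis) against the share of counts from mitochondrially encoded genes (percent), with the dashed line at 30%. The livers of fetuses 1, 2, 6 and 33 lie right of the line and hold the lowest *ZBTB1* and *ZNF131* values, whereas for *ZBTB33* fetus 33 lies among the other 10.

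Between diets none of the 3 genes was called in cerebrum or liver. In the cerebrum *ZBTB33* ran from 43.6 through 58.5 to 130.3 CPM in CON and from 29.2 through 62.5 to 91.6 CPM in RES. *ZBTB1* ran from 18.4 through 23.5 to 39.7 in CON and from 19.3 through 25.7 to 31.5 in RES, and *ZNF131* from 24.98 through 45.4 to 82.2 and from 40.2 through 44.4 to 64.9. The diets overlapped almost fully, and the RES minus CON log2 changes were -0.19 (SE 0.29), -0.12 (SE 0.21) and 0.07 (SE 0.21), all with an adjusted p of 0.999 in edgeR. Without fetuses 1 and 23 that of *ZBTB33* was 0.17.

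In the liver the RES fetuses reached lower values. *ZBTB33* ran from 14.8 through 25.1 to 31.1 CPM in CON and from 8.71 through 20.1 to 35.2 CPM in RES. *ZBTB1* ran from 4.16 through 18.02 to 22.0 in CON and from 2.72 through 9.60 to 18.9 in RES. *ZNF131* ran from 26.4 through 44.8 to 51.8 in CON and from 13.7 through 41.5 to 48.1 in RES. Every range overlapped, and 3 of the 4 livers with high mitochondrial counts were RES. The log2 changes were -0.55 (SE 0.26, adjusted p = 0.211), -0.92 (SE 0.43, adjusted p = 0.207) and -0.44 (SE 0.24, adjusted p = 0.24) in edgeR. Without the 4 livers they shrank to -0.43, -0.36 and -0.10, and with the mitochondrial share as a covariate to -0.16, -0.13 and -0.10 (smallest adjusted p of all 6 values 0.635, edgeR).

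The edgeR test called 0% of genes between diets in each of the 3 tissues. In the cerebrum and the liver the members' 0 calls match this background, and in muscle nothing is read from it. At an unadjusted p under 0.05 it found 386 genes in cerebrum, 3260 in liver and 1481 in muscle, and DESeq2 called 0 genes in cerebrum, 47 higher and 39 lower genes in the liver, and 5 higher and 8 lower genes in muscle. In muscle, as a description, *ZBTB33* was 28.1 ± 3.13 CPM in CON and 30.1 ± 4.56 in RES, *ZBTB1* 36.3 ± 2.16 and 36.0 ± 6.82, and *ZNF131* 49.7 ± 3.60 and 52.1 ± 9.12 (SD, n = 7 each). The means lay close together, while the RES values were spread more widely for each gene.

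Fetal sex is of interest because *ZBTB33* is X-linked in mammals, but only 3 fetuses were female. In the cerebrum *ZBTB33* measured 58.5, 62.1 and 62.5 CPM in the females and 29.2 to 130.3 in the males. In the liver it measured 25.1, 20.3 and 35.2 CPM against 8.71 to 31.1, and in muscle 30.9, 32.9 and 33.6 CPM against 22.8 to 35.3. Females lay within or near the male range in each tissue. The female minus male log2 changes were -0.21 (SE 0.35), 0.68 (SE 0.31) and 0.19 (SE 0.12), with adjusted p of 0.972, 0.223 and 0.552 in edgeR. Without the 4 livers, which were all male, the liver value was 0.46 (adjusted p = 0.751, edgeR).

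*ZBTB1* and *ZNF131* were not called by sex either, at 0.17 and 0.14 in muscle, at 0.996 and 0.56 in livers and at -0.19 and -0.41 in cerebra. Without the 4 male livers over 30% mitochondrial counts the liver values were 0.32 and 0.16 (adjusted p = 0.751 for both, edgeR). The background was as low, with 0.00660% of genes called in cerebrum (all higher in females), 0.00739% in liver (likewise) and 0.0134% in muscle (0.00669% in each direction). The gene called in all 3 tissues, ENSBTAG00000054758, has no symbol in the tables used and was named here after its values were seen. It had 474 to 770 counts in female and 0 in male cerebra, 222 to 432 against 0 to 1 in livers and 599 to 810 against 0 in muscles, and so passed the filter on low counts through the females alone. The other gene called in muscle, ENSBTAG00000022199, also chosen on its values, had 0 to 2 counts in females and 10 to 23 in males.

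The correlation between the 3 genes across the 14 fetuses depended on the tissue and on single libraries. Pearson correlations were computed on variance-stabilised values within diets and over the 14 fetuses after centring each diet, with exact permutation tests for n = 7 and 100000 permutations for n = 14, adjusted over the 24 values of cerebrum and liver. In the cerebrum *ZBTB33* and *ZBTB1* had r = 0.61 over 14 fetuses (rho = 0.67, permutation p = 0.0205, adjusted p = 0.0614), *ZBTB1* and *ZNF131* 0.57 (rho = 0.49, permutation p = 0.0333, adjusted p = 0.0888) and *ZBTB33* and *ZNF131* 0.13 (rho = 0.26, permutation p = 0.667, adjusted p = 0.843). None of these passed the adjustment. Leaving out the 2 fetuses farthest from the median of the first gene, without centring the diets again, gave 0.78, 0.35 and 0.67. For *ZBTB33* these were fetuses 1 and 23. The 0.78 and 0.67 are therefore no separate check on the values without these fetuses below. Among all cerebrum genes, 10.8% correlated at least as strongly with *ZBTB33* as *ZBTB1* did, and 6.52% with *ZBTB1* as *ZBTB33* did. For the other two pairs these shares were 7.195% to 8.57% and 34.03% to 40.8%.

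Fetuses 1 and 23 set the cerebrum values to a large extent. Fetus 1 combined the lowest *ZBTB33* level with a middling *ZNF131* level of 44.2 CPM, and fetus 23 combined the highest *ZBTB33* with the lowest *ZNF131*. Over the other 12 fetuses, with each diet centred again, r was 0.86 for *ZBTB33* with *ZBTB1*, 0.86 for *ZBTB33* with *ZNF131* and 0.71 for *ZBTB1* with *ZNF131*. Fetuses 1 and 23 were set aside after the data were seen and held the lowest and highest *ZBTB33* levels. The values over 12 are therefore a description, and no p-value is given for them.

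The liver libraries form 2 clusters, so the value over the 10 libraries with low mitochondrial counts comes first. There *ZBTB33* and *ZBTB1* had r = 0.86 (permutation, adjusted p = 0.00096 over the 12 values of the tissue), *ZBTB1* and *ZNF131* 0.58 (permutation, adjusted p = 0.297) and *ZBTB33* and *ZNF131* 0.52 (permutation, adjusted p = 0.319), and only the first passed. Over all 14 livers the values were 0.77, 0.91 and 0.66 (rho 0.79, 0.89 and 0.64), with permutation p of 0.00106, 2e-05 and 0.00911 and adjusted p of 0.0127, 0.00048 and 0.0437. Thus the last 2 of these relations passed only with the 4 separate livers included. Leaving out the 2 farthest livers, without centring the diets again, gave 0.67, 0.89 and 0.45. Correlations of this size were common among the 13526 other liver genes, of which 8.92% to 18.7%, 2.26% to 4.355% and 19.9% to 22.1% reached them with one member of the pair or the other.

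Within diets the liver values were 0.96, 0.93 and 0.88 in CON (exact permutation, adjusted p = 0.0127, 0.0614 and 0.0614) and 0.71, 0.92 and 0.61 in RES (exact permutation, adjusted p = 0.168, 0.0321 and 0.237), in the same order of pairs. The CON livers include that of fetus 2, without which the CON values were 0.91, 0.55 and 0.59 and none passed (exact permutation, smallest adjusted p = 0.108), and 3 of the RES livers are also among those that stood apart. The difference between diets was tested itself, by an exact permutation over all splits of the centred values into groups of 7. RES minus CON differences of Fisher's z ran from -1.04 to -0.07 in the liver (smallest exact p = 0.296) and from 0.06 to 0.56 in the cerebrum (smallest exact p = 0.847), and none passed. Without the libraries that stood apart every one of these 6 differences had the opposite sign, with cerebrum values of -0.60 to -0.26 and liver values of 0.14 to 0.42.

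In muscle, as a description, the pairs had r = 0.73 (*ZBTB33* with *ZBTB1*), 0.84 (*ZBTB33* with *ZNF131*) and 0.76 (*ZBTB1* with *ZNF131*) over 14 fetuses. In CON the same pairs had -0.10, 0.64 and 0.05, and in RES 0.92, 0.92 and 0.84. Over 14 fetuses 2.71% to 5.65%, 0.294% to 0.589% and 2.60% to 3.73% of the other muscle genes reached the r of these pairs. Fetuses 1 and 6 held the lowest levels of all 3 genes in RES. Fetus 70 was the highest for *ZBTB1* and fetus 25 for *ZBTB33* and *ZNF131*.

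**Figure D3:**
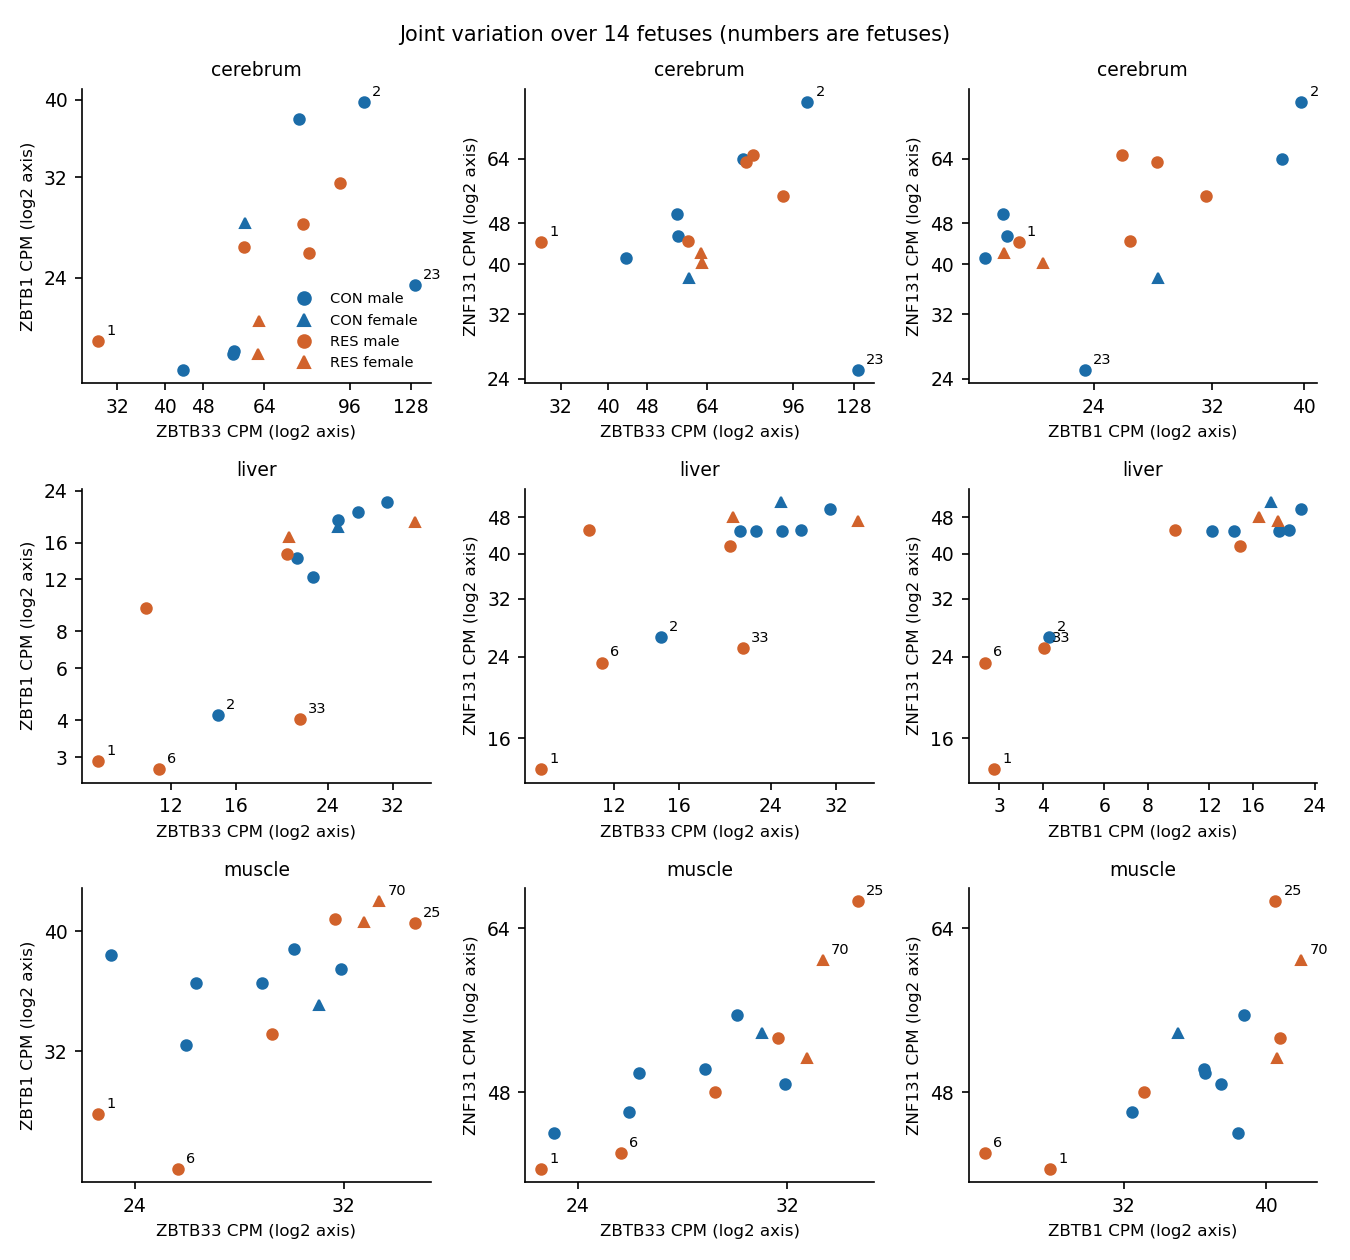
Each pair of the 3 genes plotted against each other over the 14 fetuses (TMM-normalised CPM, log2 axes), with tissues in rows and fetus numbers beside selected points. In the cerebrum fetuses 1 and 23 lie off the trend of the other 12, in the liver fetuses 1, 2, 6 and 33 form the low end, and in muscle fetuses 1 and 6 are low and 25 and 70 high.

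The levels of each gene were also compared between the tissues of the same fetus. Fetus 1 had the lowest *ZBTB33* level in all 3 tissues. Over 9 relations (3 genes, 3 pairs of tissues, 14 fetuses, diets centred), the strongest was *ZNF131* between liver and muscle, with r = 0.65 and rho = 0.58 (permutation p = 0.0122, adjusted p = 0.11). Without the 2 farthest fetuses it was 0.56 (diets not centred again), and without the 6 libraries it was 0.39 (n = 10 fetuses with both tissues left). Fetuses 1 and 6 were low for this gene in both tissues, at 13.7 and 23.3 CPM in liver and 42.0 and 43.1 CPM in muscle. *ZBTB1* had r = 0.50 between liver and muscle and *ZBTB33* 0.46 between cerebrum and muscle (permutation, adjusted p = 0.286 for both). When single fetuses were omitted, the first ran from 0.33 (without fetus 6) to 0.65 (without 33) and the second from 0.17 (without 1) to 0.65 (without 6). Without the 6 libraries they were 0.24 and 0.19. The other 6 ran from -0.43 to 0.32, and none of the 9 passed.

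The genes whose pattern was most like each member were found over all 42 libraries after removing the mean of each tissue and diet, among 5102 genes with a symbol. The libraries share fetuses and include the 6 that stood apart, so these correlations are a description. For *ZBTB33* they were *SMAD5* and *BMPR2* (r = 0.94 for both), a transducer and a receptor of bone morphogenetic protein signals, then *RAB8B*, *HNRNPLL* and *ANGEL2* (0.92 to 0.91). The *SMAD5* value was highest within the cerebrum (0.98) and lowest within muscle (0.84). The most opposed were *NUDC*, *CDC42EP1* and *G6PC3* (-0.86 to -0.83).

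For *ZBTB1* the most similar were *ZDHHC20* (0.92), a palmitoyltransferase gene, and *MYSM1*, *TIA1*, *TM7SF3* and *TRPM7* (0.91 each), of which *MYSM1* encodes a histone H2A deubiquitinase. The most opposed were *BOP1*, a ribosome biogenesis gene (-0.93), *CCM2* and *OTUB1* (-0.92 each). For *ZNF131* they were *BRCA2*, a DNA repair gene (0.94), *CKAP2*, a mitotic spindle gene (0.91), and *TOPORS*, *HNRNPH1* and *SLTM* (0.89 each). *TOMM40L* (-0.89), *NAA10* and *DGCR6L* (-0.88 each) were the most opposed. Over the 42 libraries the members were less alike than these genes were, at 0.77 for *ZBTB1* with *ZNF131*, 0.62 for *ZBTB33* with *ZBTB1* and 0.41 for *ZBTB33* with *ZNF131*. Without the 6 libraries these were 0.62, 0.82 and 0.64. There *SMAD5* was still the most similar to *ZBTB33* (0.92), whereas the 5 genes named for *ZBTB1* fell to 0.74 to 0.84, below *ZNF644* (0.88), and those named for *ZNF131* to 0.65 to 0.87, led by *HNRNPH1*.

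Differentially co-expressed partners, genes whose correlation with a member differed between CON and RES, were counted in each tissue by the difference of Fisher's z over all pairs (adjusted p of at most 0.05). As a description, *ZBTB33* had 159 partners in muscle, *ZBTB1* 137 and *ZNF131* 104, where 0.0314% of all pairs were called and a gene had 3.75 partners on average. With single fetuses left out these counts ran from 60 to 160, 46 to 152 and 31 to 228, and the average from 1.12 to 11.2. The partners of *ZBTB33* and *ZNF131* moved mostly one way, 149 of 159 and 97 of 104 from a positive r in CON to a negative r in RES. Those of *ZBTB1* split, with 78 falling and 59 rising. *ZBTB33* and *ZNF131* shared 40 partners (25.2% and 38.5% of their lists), and *ZBTB1* shared 0 with either. After sex differences were removed the counts were 11, 0 and 10, and the mean over all genes fell to 0.702. *ZBTB33* then had 4 partners with a higher and 7 with a lower r in RES, and *ZNF131* 6 and 4.

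In the liver *ZBTB33* and *ZBTB1* had 0 partners and *ZNF131* had 2, *PGAP3* (0.75 in CON, -0.99 in RES) and *TBXA2R* (0.58 and -0.99), where 0.00640% of pairs were called and a gene had 0.692 partners on average. Without fetus 70 they had 7, 27 and 30, and that mean was 22.8. In the cerebrum *ZBTB33* had 373, *ZBTB1* 4 and *ZNF131* 9, where 0.435% of pairs were called and a gene had 52.7 on average. Of the 373, 247 had a higher r in RES, among them *RASL10B* (-0.91 in CON, 0.98 in RES) and *ESCO1*, a cohesin acetyltransferase gene (-0.62 and 0.99), and 126 a lower one, among them *SCAMP2* (0.96 and -0.94). Without fetus 2 the direction turned, with 178 higher and 327 lower of 505. Without fetus 1 the cerebrum counts were 0, 0 and 1, and the mean over all genes fell from 52.7 to 0.955 partners. Without fetus 23 the count of *ZBTB33* was 53 and that mean 16.5.

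The muscle partners were followed into the other tissues. Of the 159 of *ZBTB33*, 113 were tested in the cerebrum, where 1 was called, and 103 in the liver, where 0 were. Over all genes 296 of 15150 were called with *ZBTB33* in the cerebrum and 0 in the liver, so the single call is near the background. These counts used all expressed genes, a setting in which 122 of the 159 were called in muscle itself. Of the 137 of *ZBTB1*, 132 and 123 were tested, and of the 104 of *ZNF131*, 77 and 57, with 0 called in either tissue. Over all 15150 cerebrum genes only 6 were called with *ZBTB1* and 6 with *ZNF131*. Over 13526 liver genes 1 and 4 were, so these 0 calls are near the background too. Among the 113 of *ZBTB33* in the cerebrum the median r was -0.11 in CON and -0.65 in RES, against -0.02 and -0.05 over all genes. The RES median was -0.38 without fetus 1, and the CON median was -0.31 without fetus 23, so most of the difference between diets rested on these 2 libraries. In the liver the medians of the *ZBTB33* partners were -0.52 (CON) and -0.54 (RES), against 0.06 and 0.07 over all genes. Without the 4 livers over 30% mitochondrial counts these partners had -0.41 and -0.65, against -0.02 and 0.01. Over all 14 livers the partners of *ZBTB1* had medians of -0.05 (CON) and 0.13 (RES) with it, and those of *ZNF131* -0.04 and -0.09.

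**Figure D4:**
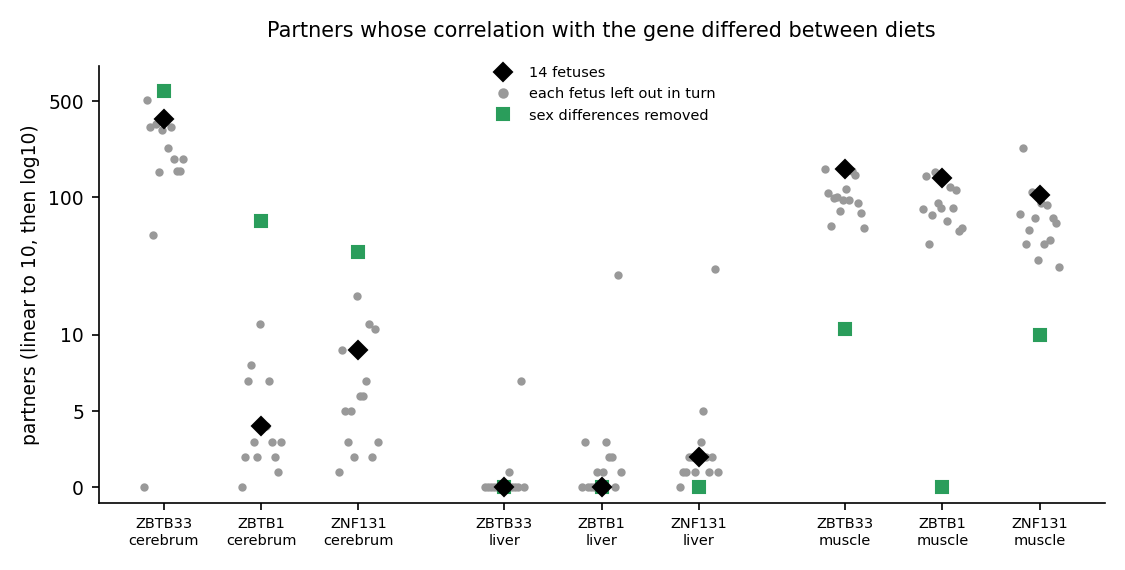
Number of differentially co-expressed partners of each gene in each tissue (axis linear to 10, then log10), for 14 fetuses (diamonds), with each fetus left out in turn (grey) and after sex differences were removed (green). The 373 partners of *ZBTB33* in the cerebrum fall to 0 without fetus 1, and the muscle counts of 159, 137 and 104 fall to 11, 0 and 10 without the sex differences.

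Muscle values can be read beside the muscle content of each library. The 4 myogenic genes of the study, *MYOD1*, *MYF5*, *MYOG* (regulators of the muscle lineage) and *CDKN1A* (a cell cycle inhibitor), correlated with *ZBTB33* at 0.67 to 0.95 in CON and at -0.92 to -0.86 in RES. With *ZNF131* they had 0.45 to 0.66 in CON and -0.99 to -0.98 in RES, and with *ZBTB1* -0.07 to 0.28 and -0.86 to -0.83. The signs turned for *ZBTB33* and *ZNF131* with each of the 4 genes. With sex differences removed, *ZBTB33* had 0.59 to 0.87 in CON and -0.90 to -0.84 in RES, and *ZNF131* 0.49 to 0.59 and -0.98 to -0.97, so these signs also turned. *ZBTB1* then had -0.32 to -0.04 in CON and -0.86 to -0.81 in RES, negative in both diets. The summed level of the 6 skeletal muscle markers, of which *MYOD1*, *MYF5* and *MYOG* are part, ranged from 1301 to 3260 CPM in CON and from 882 to 6546 in RES.

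In RES, the fetuses with the highest marker sums had the lowest members. Fetus 6 (6546 CPM of markers) and fetus 1 (5557) had *ZNF131* at 43.1 and 42.0 CPM, whereas fetus 25 (882) and fetus 70 (1002) had 67.1 and 60.5 CPM. In CON no marker sum lay above 3260 CPM, and the lowest, that of fetus 73 (1301), went with the lowest *ZBTB33* level in the group (23.2 CPM). Fetus 73 also had the lowest *ZNF131* of CON (44.7 CPM), but its *ZBTB1*, at 38.3 CPM, was near the highest of CON (38.7 CPM). Fetus 25 also had the most cartilage markers (203.5 CPM) and the least *ERBB3* (30.6 CPM), and fetus 1 the fewest cartilage markers (35.7 CPM) and the most *ERBB3* (214.1 CPM). The part of these differences in tissue content in the muscle correlations was not tested.

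**Figure D5:**
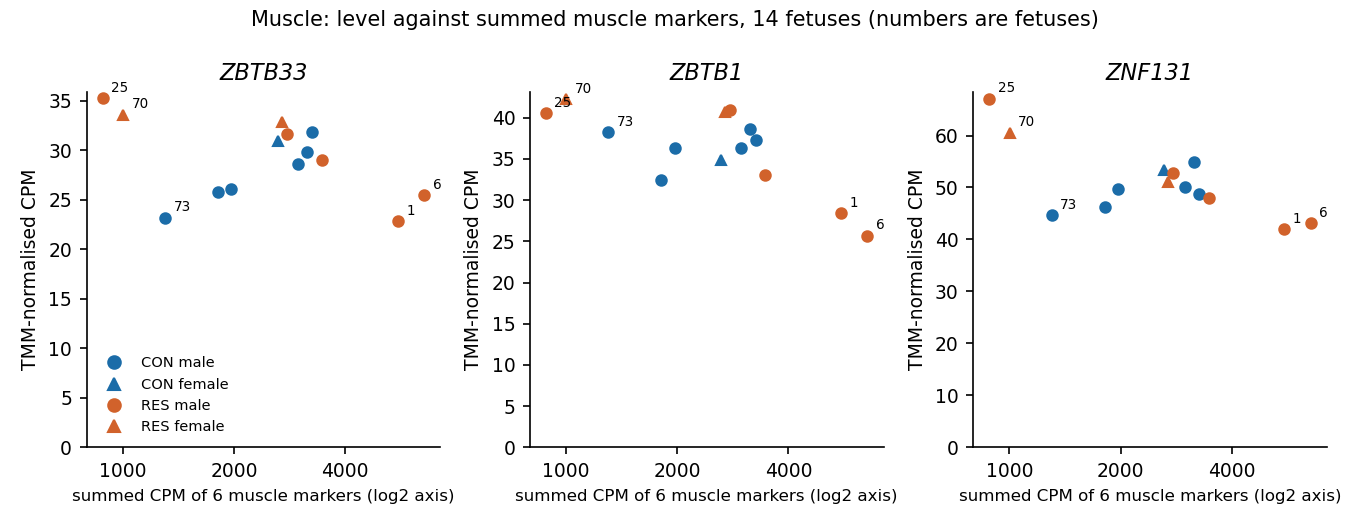
Level of each gene in muscle (TMM-normalised CPM, axis from 0) against the summed CPM of 6 skeletal muscle markers (log2 axis) in 14 fetuses. RES fetuses 25 and 70, at 882 and 1002 CPM of markers, hold high levels and fetuses 1 and 6, at 5557 and 6546, low ones, while the CON fetuses stay between 1301 and 3260.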

How the data were processed

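RNA-Seq of 42 strand-specific libraries (50-bp paired-end, 21 per lane, lane of each not given) was processed by the authors, who mapped reads to ARS-UCD1.2 with Ensembl release 100 and obtained raw counts per gene with STAR 2.7.3a GeneCounts after FastQC 0.11.8. The deposited values are these counts, unnormalized, and which strand column was kept is not given in the sources used here. Symbols came from the study's supplementary tables. Here, genes below 1 CPM in at least 80% of libraries were removed, and counts were tested with edgeR 4.0.16 (TMM, quasi-likelihood, sex as covariate, tissue fits with diet as well) in R 4.3.3 with limma 3.58.1, at adjusted p under 0.05. Log2 levels used a prior count of 1. Correlations used DESeq2 1.42.0 variance-stabilised values, and partners were sought after removing the 20% of genes with the least dispersion. The edgeR fit of the diets within each tissue was tested on simulated counts. Fetus numbers pair libraries by animal, and the block for the animal was an alternative, as were normalization, filters, covariates and leaving out each fetus. Members and lists were chosen with earlier results of these data known. The text names the members, the myogenic genes, markers, the 5 most and 3 least similar genes with a symbol, and called list genes and partners with the lowest p. P-values of the diet, sex and permutation tests measure the spread between fetuses. The main tissue fits treat the 3 libraries of a fetus as independent, and the partner counts used a normal approximation. Some marker genes are not reported here.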

Additional observations from a re-analysis of the deposited data

Results flagged for a closer look

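In 18 groups of 7 libraries (3 genes, 3 tissues, 2 diets), 3 had an extreme library by Dixon's criterion, where chance gives about 1 in 20 groups. *ZBTB33* in the RES cerebra had a low value of 29.19 CPM in fetus 1, against 58.3 to 91.6 CPM in the other 6. *ZBTB1* in the CON livers had a low value of 4.159 CPM in fetus 2, against 12.2 to 22.0 CPM in the others. *ZNF131* in the same CON livers had a low value of 26.41 CPM in fetus 2, against 44.7 to 51.8 CPM. These are 2 of the 6 libraries that stood apart by other measures, the liver of fetus 2 with 44.9% and the cerebrum of fetus 1 with 14.7% mitochondrial counts, and the part of those measures in the low values was not tested.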

How the results depend on the processing

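Each value was recomputed under each alternative that applied to it. For levels, 56 of 63 tissue values, 53 of 54 diet values and 54 of 54 sex values kept their direction and call when no fetus was left out. With the replicate block, which pairs the 3 libraries of a fetus, *ZNF131* was -0.35 in liver against cerebrum (adjusted p = 0.03), 0.04 in muscle against cerebrum and 0.39 in muscle against liver (adjusted p = 0.0157), and it changed no call. Muscle against cerebrum for *ZNF131* was -0.0283 by DESeq2's Wald test, -0.0287 with its size factors, -0.028 with a stricter filter and -0.0021 without the 6 libraries that stood apart. Without them, *ZNF131* was also -0.1115 in liver against cerebrum and 0.1095 in muscle against liver, and *ZBTB33* 0.2713 in muscle against liver. Leaving out each fetus in turn, *ZNF131* ran from -0.4173 to -0.2301 in liver against cerebrum (not called without fetus 1, 2, 6, 33 or 52), from -0.0236 to 0.1025 in muscle against cerebrum and from 0.3011 to 0.4058 in muscle against liver (not called without 33). *ZBTB1* ran from 0.4541 to 0.559 in muscle against cerebrum. The diet value of *ZBTB33* in the cerebrum was 0.17 without fetuses 1 and 23 and ran from -0.2913 to 0.0263 over the fetuses left out, and that of *ZNF131* from -0.022 to 0.2188.

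Correlations moved more. In the cerebrum without fetuses 1 and 23, r was 0.8583 (*ZBTB33* and *ZBTB1*), 0.8557 (*ZBTB33* and *ZNF131*, 0.905 in CON) and 0.7078 (*ZBTB1* and *ZNF131*), and the diet differences of z were -0.5945, -0.6038 and -0.258. With Spearman's rho the first and the last of these differences were -0.462 and -0.04462, and *ZBTB33* and *ZNF131* in CON had 0.03571. With sex differences removed the last was -0.3983. Over the fetuses left out, these pairs ran from 0.5349 to 0.7324, from -0.09314 to 0.6826 (CON from -0.4598 to 0.905) and from 0.3478 to 0.7118, and their diet differences from -0.7002 to 0.3326, from -0.9562 to 1.04 and from -0.2244 to 0.5113. In the liver *ZBTB33* and *ZNF131* had 0.5333 with sex differences removed, 0.6396 by Spearman's rho and 0.5179 without the 4 livers over 30%, where *ZBTB1* and *ZNF131* had 0.5844, and none of these 4 passed. The diet differences of z without the 4 livers were 0.4196, 0.143 and 0.2051, and by Spearman's rho that of *ZBTB1* and *ZNF131* was 0.5878. Over the fetuses left out, *ZBTB33* and *ZBTB1* ran from 0.7188 to 0.8608 and *ZBTB33* and *ZNF131* from 0.5513 to 0.8433, and the diet differences of *ZBTB33* and of *ZBTB1* with *ZNF131* from -0.9179 to 0.03355 and from -0.2659 to 0.9817.

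Between tissues, without the 6 libraries r was -0.08481 (*ZBTB33*, liver and muscle), 0.1117 (*ZBTB1*, cerebrum and liver) and -0.01512 (*ZNF131*, cerebrum and muscle). Spearman's rho was 0.002198 for *ZBTB1* and -0.1956 for *ZNF131* between cerebrum and muscle, and with sex differences removed *ZNF131* had 0.01634 between cerebrum and liver. Over the fetuses left out, cerebrum with liver ran from -0.4254 to 0.05692 (*ZBTB33*) and from -0.3447 to 0.09112 (*ZNF131*), cerebrum with muscle from -0.2354 to 0.1302 (*ZBTB1*) and from -0.2207 to 0.1256 (*ZNF131*), and liver with muscle from 0.4975 to 0.7279 (*ZNF131*, which passed without fetus 52).

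Counts of partners in the cerebrum, in the order *ZBTB33*, *ZBTB1*, *ZNF131*, were 588, 67 and 40 with sex differences removed. The mean over all genes then rose from 52.7 to 131. Without fetuses 1 and 23 the counts were 0, 0 and 1 (mean 0.493), and *ZBTB1* had 7 on log2 CPM. In the liver *ZBTB33* had 1 without the 4 livers, *ZBTB1* had 1 without the dispersion filter, and *ZNF131* had 4 without that filter, 0 with sex differences removed, 0 on log2 CPM and 0 without the 4 livers. In muscle the counts were 11, 0 and 10 with sex differences removed, and *ZBTB33* had 84 on log2 CPM. Over the fetuses left out they ran from 0 to 587, 0 to 12 and 1 to 19 in the cerebrum, from 0 to 7, 0 to 27 and 0 to 30 in the liver (the highest without fetus 70), and from 60 to 160, 46 to 152 and 31 to 228 in muscle (lowest without 73, 6 and 73, highest without 1, 25 and 2). The causes of these moves were not tested. With 7 fetuses a diet and 7 to 605 reads per member and library, small differences were not detectable, and strand and lane were not known.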
